A study of Danio rerio with 20 samples.

Results

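The genes described here are the 3 chains of complement component C1q (c1qa, c1qb, c1qc) together with the leukocyte markers mpeg1.1, csf1ra, marco, spi1b, lyz, mfap4 and epx, followed in zebrafish liver across 2 ages and swim exercise. These 10 names were looked up among the 32105 Ensembl identifiers of the deposited count table and matched 18 of them. Every matching identifier was kept. The names c1qa, c1qb, c1qc, csf1ra, marco and lyz each matched 1 identifier. For spi1b the match was the identifier with the symbol SPI1. The name mpeg1.1 matched, without its number suffix, 3 identifiers with the symbol MPEG1. There were 6 identifiers for MFAP4 and 2 matching the name epx with case ignored, with the symbols epx and EPX. Of the 18, 16 passed the filter on low counts. The other two were MPEG1 (ENSDARG00000078569), with 15 reads over all libraries, and MFAP4 (ENSDARG00000038681), which stayed between 0 and 0.872 CPM (reads scaled to a common library total).

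The genes were chosen by the fold changes of a first analysis of the same counts, which had shown lower c1qa and c1qc in exercised 1-year fish and higher myeloid genes in exercised 3-year fish. All their values are therefore given as a description, and fold changes and adjusted p-values come from a model fitted to all 18079 genes tested.

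C1q is the recognition part of the first complement component. It is assembled from A, B and C chains, and it recognises antibody complexes, microbes and dying cells. In mammals its main source is tissue macrophages and dendritic cells rather than hepatocytes. In mammals the resident liver macrophages, the Kupffer cells, clear particles, bacteria and aged red cells from the blood, and depend on the CSF1 receptor for their survival. Perforin-2 (MPEG1), scavenger receptor MARCO and transcription factor PU.1 (SPI1) are general myeloid or macrophage markers. Peroxidases and lysozyme are found among the granule enzymes of granulocytes.

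The study sequenced messenger RNA from livers of male zebrafish of strain AB JxTu in 4 groups of 5 libraries: 3-year fish with swim-tunnel exercise, 3-year fish without it, 1-year fish with swim-tunnel exercise, and 1-year fish without it. Neither a genetic change nor a drug is recorded for any group, and the labels used here give no duration or speed of swimming. They also do not say that each library is a separate fish, so a p-value reflects variation from library to library, part of which could be technical.

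Library totals ranged from 33046127 to 49579666 counts. The summed level of a hepatocyte marker list was between 122000 and 325400 CPM in every library, so hepatocyte transcripts were present in all. Markers of intestine and of exocrine pancreas were also present, unevenly. The library with the lowest hepatocyte sum, 3-year exercised replicate 1, held 51760 CPM of intestine and 90380 CPM of exocrine pancreas markers. The pancreas sum was highest in 1-year resting replicate 4, at 146700 CPM. The intestinal fatty acid binding protein gene fabp2 was above 100 CPM in 7 libraries, where it ranged from 282.5 to 3480 CPM, and at most 5.73 CPM in the other 13. Of the 7, 3 were 3-year exercised (replicates 1, 2 and 5), 1 was 3-year resting (replicate 3), 2 were 1-year exercised (replicates 3 and 4) and 1 was 1-year resting (replicate 5). Levels, overlaps, correlations and the edgeR fit were also computed on the 13 libraries. The alternative fits, such as DESeq2 or leaving out 1 library, were not. The 13 hold 2 samples of 3-year exercised, 4 of 3-year resting, 3 of 1-year exercised and 4 of 1-year resting fish. The 13 were not chosen by pancreas content. Their summed level of 23 exocrine pancreas markers was 55.4 to 368.3 CPM in 3-year exercised and 1893 to 121700 CPM in 3-year resting libraries. It was 1214 to 26270 CPM in 1-year exercised and 210.9 to 146700 CPM in 1-year resting libraries. The part of pancreas in the differences below was not tested. In whole-liver RNA, fewer cells of a type and less RNA per cell cannot be told apart.

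In group means over all libraries, the C1q chains were lowest in exercised 1-year fish and highest in exercised 3-year fish, with little fitted difference between the 3-year groups. In exercised fish, all 3 chains were higher at 3 years than at 1 year in every library, by between 1.81 and 2.16 on the log2 scale. In 1-year fish, c1qa and c1qc were called lower with exercise, by 1.45 and 1.26 on the log2 scale, and the c1qb difference of -1.22 did not pass the test. In 3-year fish no C1q chain passed.

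The A chain gene c1qa (ENSDARG00000044613) was at 7.43, 16.5, 7.23, 6.59 and 10.5 CPM in the 3-year exercised libraries, replicates 1 to 5. The 3-year resting libraries had 3.11, 4.45, 8.46, 6.82 and 7.04 CPM. The A chain stood at 1.37, 1.78, 1.70, 3.53 and 1.06 CPM in 1-year exercised fish, against 3.72, 4.30, 4.59, 2.16 and 10.4 CPM in 1-year resting fish. Thus the highest 1-year exercised library lay below every 3-year exercised library and above the lowest 1-year resting one. The group means were 9.65 ± 4.11 CPM in 3-year exercised, 5.98 ± 2.15 in 3-year resting, 1.89 ± 0.96 in 1-year exercised and 5.04 ± 3.16 in 1-year resting fish (SD, n = 5 each).

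The B chain gene c1qb (ENSDARG00000044612) had 8.04, 17.9, 8.07, 9.13 and 10.4 CPM in 3-year exercised fish, and 3.43, 4.62, 11.9, 11.1 and 9.14 CPM in 3-year resting fish. In 1-year exercised fish it had 1.58, 2.09, 2.46, 5.53 and 1.96 CPM, against 3.21, 4.68, 5.46, 3.05 and 15.2 CPM in 1-year resting fish. The 1-year groups overlapped only through exercised replicate 4, one of the libraries with high fabp2. The C chain gene c1qc (ENSDARG00000095627) had 11.99, 20.6, 9.89, 8.38 and 14.2 CPM in 3-year exercised fish, and 4.59, 7.04, 10.6, 11.0 and 9.998 CPM in 3-year resting fish. Its 1-year exercised values were 1.85, 3.08, 2.83, 5.14 and 2.36 CPM, against 4.93, 5.11, 6.86, 4.03 and 14.8 CPM in 1-year resting fish. Replicate 4 was again the 1-year exercised library that reached into the resting range, and replicate 5 the 1-year resting library that stood above the rest.

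**Figure D1:**
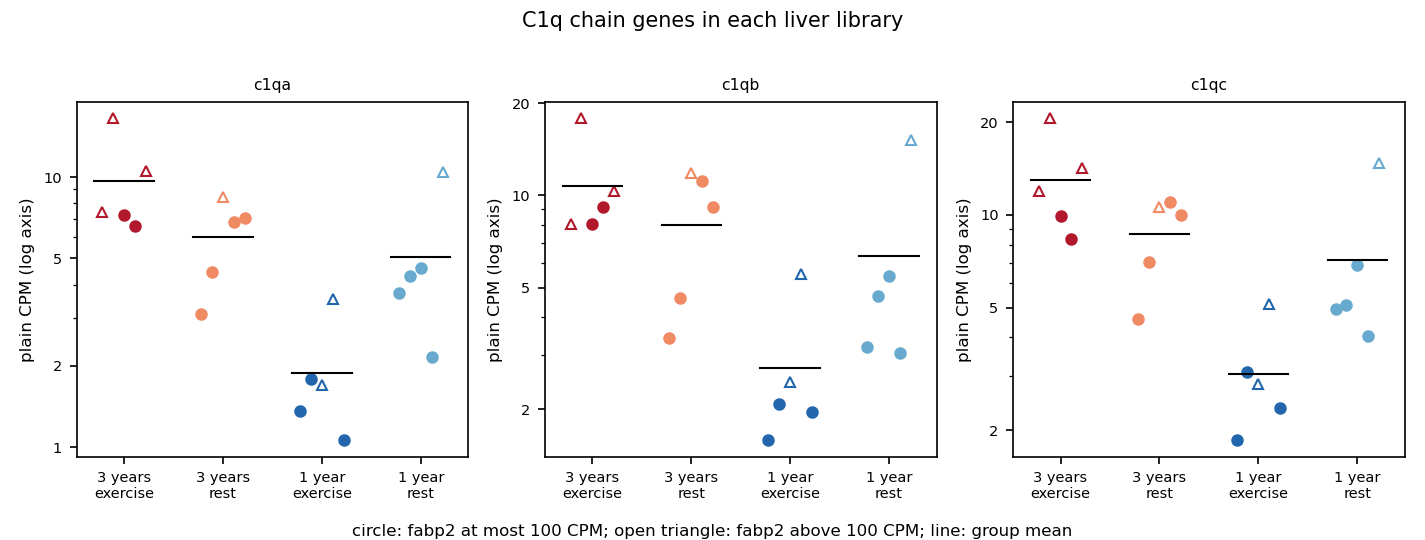
Plain CPM (log axis) of c1qa, c1qb and c1qc in the 20 liver libraries, by age and exercise, with fabp2-rich libraries as open triangles and the group mean as a line. For c1qa the 5 exercised 3-year libraries lie between 6.59 and 16.5 CPM, all above the 5 exercised 1-year libraries at 1.06 to 3.53 CPM.

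Between 3-year and 1-year exercised fish, the fitted log2 difference was 2.16 ± 0.32 (SE) for c1qa (adjusted p = 0.000817 by edgeR's quasi-likelihood test with Benjamini-Hochberg adjustment over all genes). It was 1.81 ± 0.38 for c1qb (adjusted p = 0.00846) and 1.89 ± 0.28 for c1qc (adjusted p = 0.000817). All 3 kept an adjusted p under 0.05 in each of 20 fits that left out 1 library. Without the fabp2-rich libraries the differences were 2.26 ± 0.36 (adjusted p = 0.0141), 2.16 ± 0.45 (0.0344) and 1.88 ± 0.35 (0.0264). Markers of other cells also differed between these groups on the 13 libraries. The summed level of 23 exocrine pancreas markers was 55.4 to 368.3 CPM in 3-year exercised fish, against 1214 to 26270 CPM in 1-year exercised fish, and that of 22 stellate cell and matrix markers was 313.7 to 321.2 CPM, against 634.8 to 902.8 CPM. The summed level of 32 hepatocyte markers was higher in 3-year exercised fish, at 276200 to 317100 CPM, against 238000 to 263500 CPM. The median log2 difference of 16 skeletal muscle markers was 3.59, against -0.057 over all genes, and 0 of the 16 were called. Their list summed to 14.33 CPM in 3-year exercised replicate 3 and 297.8 CPM in replicate 4. With 6.25 to 16.13 CPM in 1-year exercised fish, the groups overlapped. No pancreas or stellate marker was at 0 throughout a group, and the part of these tissues in the C1q difference was not tested.

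At 1 year, the log2 difference of exercised minus resting fish was -1.45 ± 0.31 for c1qa (adjusted p = 0.017) and -1.26 ± 0.27 for c1qc (adjusted p = 0.0181). For c1qb it was -1.22 ± 0.38, with an adjusted p of 0.10 that missed the threshold of 0.05. Only c1qa and c1qc of the 16 tested passed in this fit over all libraries. In that fit 2.85% of all genes were called in either direction and 1.47% were called lower. With the 13 libraries c1qa still passed (-1.54 ± 0.32, adjusted p = 0.0489), while c1qc did not (adjusted p = 0.0789), where 1.02% of all genes were called. Neither passed when the fit held only the 1-year groups (adjusted p = 0.0567 for c1qa and 0.0521 for c1qc, with the same differences to within 0.01), and c1qc did not without 1-year exercised replicate 1 (adjusted p = 0.0522). With fabp2 as a term in the fit (above 100 CPM or not), all 3 chains passed. Their adjusted p-values were 0.00516 for c1qa, 0.0341 for c1qb and 0.0068 for c1qc. DESeq2 also called all 3 chains lower, with adjusted p-values of 0.000363 for c1qa, 0.0282 for c1qb and 0.000509 for c1qc. It called 3.89% of the 26860 genes it fitted, a base that includes genes without an adjusted p. In edgeR, c1qb passed as well without 1-year exercised replicate 4 (-1.54, adjusted p = 0.0439). Over all libraries none of the 16 members was free of overlap between exercised and resting 1-year fish, while 2.26% of all genes did not overlap with the exercised group higher and 1.25% with it lower. In the 13 libraries the C1q chains and MPEG1 (ENSDARG00000055290) lay lower in every exercised than in every resting 1-year library, 4 of 16 members, as 4.03% of all genes did. Of 24 lymphocyte markers tested in the same comparison, 1 had a positive difference, and the median log2 difference was -0.63 against -0.04 over all genes. One of them was called lower, blnk, which encodes a B cell adaptor protein (-1.0 ± 0.17, adjusted p = 0.00424), and 0 of 26 were called on the 13 libraries. Their part in the C1q difference was not tested.

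At 3 years, the log2 difference of exercised minus resting fish was 0.31 ± 0.30 for c1qa, 0.04 ± 0.37 for c1qb and 0.18 ± 0.27 for c1qc. The smallest adjusted p of the 3 was 0.587. In the same order, the differences were 0.22, 0.12 and -0.0004 on the 13 libraries. With fabp2 as a term they were 0.11, -0.16 and -0.0007. Over all libraries the age difference at rest was 0.40 ± 0.30, 0.55 ± 0.37 and 0.45 ± 0.27 for the 3 chains in that order. Its adjusted p-values were 0.436 to 0.558. The exercise effect of 3-year fish minus that of 1-year fish was 1.76 ± 0.43 for c1qa (adjusted p = 0.0613) and 1.44 for c1qc (adjusted p = 0.0902), so this test of the difference between ages missed the threshold for both genes in edgeR over all libraries. With fabp2 as a term it passed for c1qa (1.66 ± 0.38, adjusted p = 0.035), and on the 13 libraries the adjusted p was 0.192 for c1qa and 0.332 for c1qc. Leaving out 1 library, c1qa passed without 1-year exercised replicate 4 (2.01, adjusted p = 0.024), 1-year resting replicate 4 (0.0416) or 3-year resting replicate 4 (0.0461), and c1qc without the first (0.0459) or the last of these (0.0392). DESeq2 gave adjusted p-values of 0.00607 for c1qa and 0.0161 for c1qc for the same difference.

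The levels of the 3 chains were closely correlated. Scaled by gene length, c1qa made up 23.3% ± 2.5 of C1q transcripts, c1qb 34.9% ± 3.7 and c1qc 41.8% ± 3.3 (SD, n = 20 libraries). The group means of the c1qa share lay between 21.2% and 24.8%, those of c1qb between 33.8% and 36.1% and those of c1qc between 41.2% and 42.7%. For c1qb and c1qc these differences were smaller than the SD between libraries. The c1qa share was 24.8% in 3-year exercised and 21.2% in 1-year exercised fish, further apart than the SD, and this difference was not tested. Over the 20 libraries the Pearson correlations of the log2 levels of each chain with another were 0.97 to 0.98, values that share library depth and are a description. The summed C1q level was 33.3 ± 12.8 CPM in 3-year exercised, 22.7 ± 8.6 in 3-year resting, 7.67 ± 3.78 in 1-year exercised and 18.5 ± 12.6 CPM in 1-year resting fish. It rested on 179 to 1972 reads a library. In RefSeq's zebrafish assembly GRCz12tu the genes are direct neighbours in the order c1qb, c1qc, c1qa, with 0 genes between them.

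The macrophage markers MPEG1, marco and SPI1 were all higher in exercised 3-year than in exercised 1-year fish. None of them passed between exercised and resting fish of either age in the edgeR fit over all libraries. With fabp2 as a term, MPEG1 (ENSDARG00000055290) was called lower in exercised 1-year fish (-1.30 ± 0.35, adjusted p = 0.0427), and its difference on the 13 libraries was -1.38 (adjusted p = 0.104). The receptor gene csf1ra showed a smaller difference that did not pass.

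MPEG1 encodes perforin-2, a pore-forming protein of phagocytes that attacks engulfed bacteria. The more abundant identifier, MPEG1 (ENSDARG00000055290), had 23.5, 43.8, 11.0, 15.8 and 33.1 CPM in 3-year exercised fish, and 5.73, 10.8, 21.1, 12.99 and 13.9 CPM in 3-year resting fish. It had 2.68, 2.96, 5.42, 18.7 and 2.94 CPM in 1-year exercised fish, against 5.63, 7.45, 10.2, 3.65 and 40.1 CPM in 1-year resting fish. The highest values of the 1-year groups, 18.7 and 40.1 CPM, both came from fabp2-rich libraries, and the groups overlapped in all 4 comparisons. For 3-year against 1-year exercised fish the log2 difference was 1.78 ± 0.54 (adjusted p = 0.0458), and it was below the threshold in only 6 of 20 fits that left out 1 library, with adjusted p-values up to 0.111. Its difference of 2.18 on the 13 libraries (adjusted p = 0.0274) was larger.

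The second identifier, MPEG1 (ENSDARG00000043093), had 6.64, 11.3, 5.99, 7.10 and 11.4 CPM in 3-year exercised fish, against 0.778, 3.52, 1.31, 4.07 and 0.954 CPM in 1-year exercised fish, with no overlap. In resting fish it was between 1.98 and 7.26 CPM at 3 years, and between 1.07 and 7.31 CPM at 1 year. The log2 difference among exercised fish was 1.85 ± 0.46 (adjusted p = 0.018), and 0.0652 was the adjusted p on the 13 libraries. RefSeq lists mpeg1.1 and mpeg1.2 as separate zebrafish genes, and the symbol table does not tell which of these identifiers is which. Reads shared between the copies may also have been split in ways not recorded in the sources used here.

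MARCO is a scavenger receptor with which macrophages bind bacteria and particles. The gene marco (ENSDARG00000059294) had 10.4, 23.1, 11.5, 11.3 and 20.9 CPM in 3-year exercised fish, and 7.18, 3.97, 12.1, 9.93 and 7.51 CPM in 3-year resting fish. Its 1-year exercised values were 2.90, 6.12, 5.13, 6.94 and 3.42 CPM, against 4.24, 5.09, 4.41, 4.49 and 22.7 CPM in 1-year resting fish. The exercised groups of the 2 ages did not overlap, and 4 of the 5 resting 1-year libraries lay inside the range of the exercised 1-year ones. The difference between 3-year and 1-year exercised fish was 1.45 ± 0.35 (adjusted p = 0.0152) on the log2 scale, with an adjusted p of 0.0512 on the 13 libraries.

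SPI1 is PU.1, a transcription factor needed for the myeloid lineage. The SPI1 gene (ENSDARG00000000767) had 6.85, 8.41, 9.86, 7.43 and 6.82 CPM in 3-year exercised fish, and 1.98, 2.72, 7.15, 2.90 and 5.04 CPM in 3-year resting fish. It had 1.45, 4.05, 2.49, 3.11 and 2.38 CPM in 1-year exercised fish, against 1.66, 2.63, 2.33, 2.82 and 6.74 CPM in 1-year resting fish. Every exercised 3-year library was above every exercised 1-year library, and among resting libraries only 3-year replicate 3, rich in fabp2, reached that range. Its log2 difference among exercised fish was 1.41 ± 0.31 (adjusted p = 0.00931), and 1.72 ± 0.39 on the 13 libraries (adjusted p = 0.0449). Exercised minus resting 3-year fish gave 0.74 ± 0.30 (adjusted p = 0.249).

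The product of csf1ra (ENSDARG00000102986) is the receptor for the growth factors CSF1 and IL34, used by macrophages and, in zebrafish, also by pigment cells. It had 4.097, 6.29, 2.96, 4.46 and 6.88 CPM in 3-year exercised fish, against 1.26, 1.27, 1.65, 3.73 and 2.41 CPM in 1-year exercised fish. The resting values were 0.830 to 5.04 CPM at 3 years and 1.102 to 6.54 CPM at 1 year, so all pairs of groups overlapped. The log2 difference among exercised fish was 1.06 ± 0.44 (adjusted p = 0.142).

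**Figure D2:**
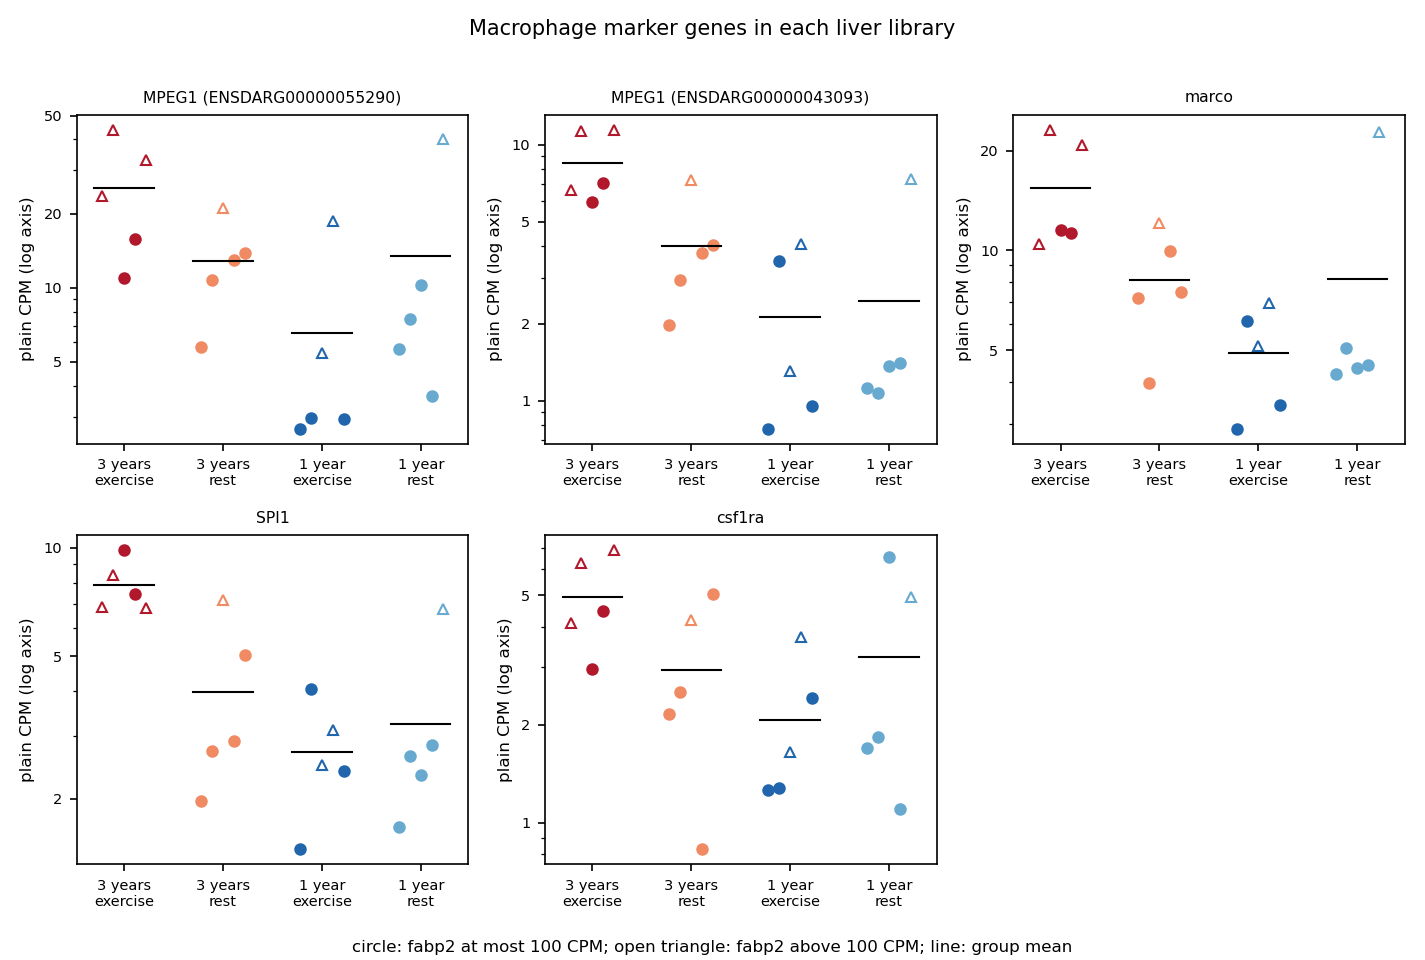
Plain CPM (log axis) of MPEG1 (the 2 identifiers tested), marco, SPI1 and csf1ra in the 20 libraries, by age and exercise. Open triangles are libraries with fabp2 above 100 CPM and lines are group means; the exercised 3-year libraries of SPI1, at 6.82 to 9.86 CPM, lie above all exercised 1-year libraries, at 1.45 to 4.05 CPM.

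Counted together, 11 of the 16 members tested were called higher in exercised 3-year than in exercised 1-year fish and 0 lower. Over all genes 9.17% were called, 3.91% higher and 5.25% lower. The median log2 difference of the 16 was 1.87, against 0.08 over all genes. Of the same 16, 9 were called higher on the 13 libraries, with 2.41% of all genes called and 1.2% called higher. In plain CPM, 9 of the 16 did not overlap between these groups over all libraries, as did 5.2% of all genes in that direction. With the 13 libraries it was 14 of 16, with 20.1% of all genes, a share raised by having only 2 libraries against 3. Since the members were chosen for this difference, nothing is read from these counts.

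For exercise at 3 years, age at rest and the difference of the exercise effect between ages, 0 of the 16 were called in the edgeR fit over all libraries without fabp2 as a term. In exercise at 3 years, edgeR called 0% of all genes (2952 genes at an unadjusted p under 0.05). DESeq2, which fitted all 18 members, called 2 of them, MFAP4 (ENSDARG00000089667) and MFAP4 (ENSDARG00000038683), and 1.72% of the genes it fitted. It gave no adjusted p there to MPEG1 (ENSDARG00000078569), MFAP4 (ENSDARG00000038681) or epx (ENSDARG00000012535), so these could not be called. For age at rest 3.5% of all genes were called (2.4% on the 13 libraries, again with 0 of the 16). DESeq2 called EPX (ENSDARG00000019521) with an adjusted p of 0.00221, and 4.83% of all genes. For the exercise effect of 3-year minus that of 1-year fish, 0.979% of genes were called in edgeR. DESeq2 called 3 members and 2.1% of all genes. The 13 libraries gave 1 call for that difference, MFAP4 (ENSDARG00000090557) at 2.99 (adjusted p = 0.0375), with 0.11% of all genes called. Among resting fish of the 13 libraries, MPEG1 (ENSDARG00000043093) and MFAP4 (ENSDARG00000088745) did not overlap between 3 years and 1 year, as 5.49% of all genes did not with 3 years higher, and over all libraries no member did (1.02% of all genes). Between exercised and resting 3-year fish of the 13 libraries 7 of the 16 did not overlap, all higher with exercise, as 11.9% of all genes did not. Exercise effects at 1 and 3 years had a median of -0.63 and 0.66 over the 16 members on the log2 scale, against -0.04 and 0.04 over all genes.

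**Figure D3:**
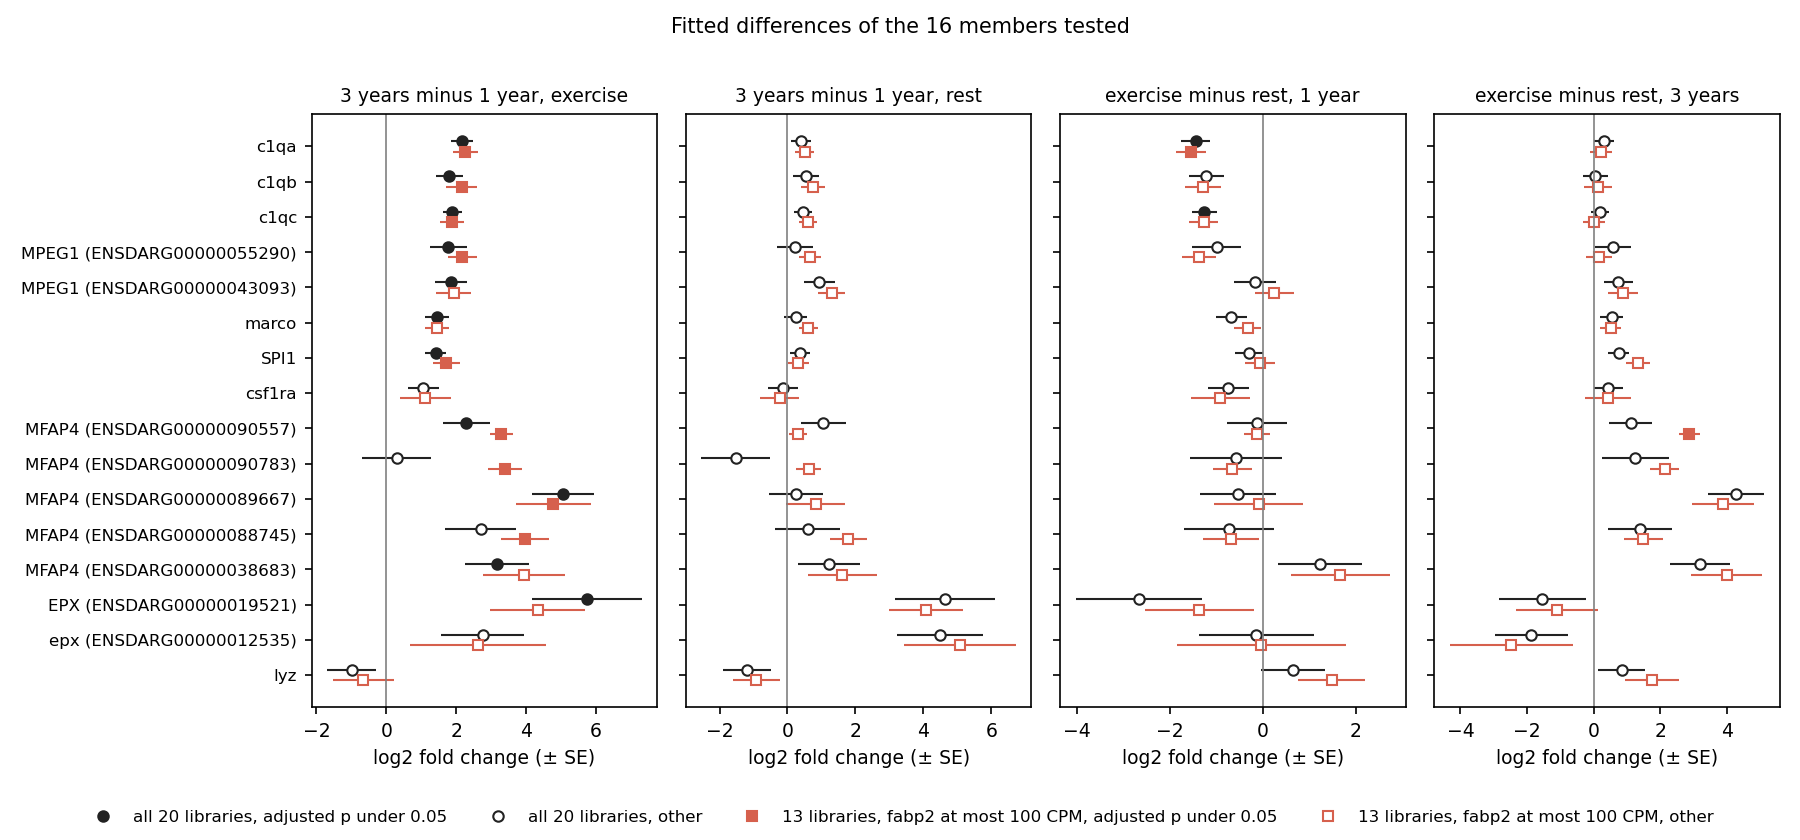
Fitted log2 fold changes (± SE) of the 16 members tested in 4 comparisons, with all 20 libraries (circles) and with the 13 libraries whose fabp2 is at most 100 CPM (squares); filled symbols have an adjusted p under 0.05. In exercised fish 11 members are called higher at 3 years with all libraries (3.91% of all genes) and 9 with the 13 libraries (1.2% of all genes).

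In each group, the highest library was a fabp2-rich one for most members. Among 1-year resting libraries, replicate 5 was the highest for 15 of the 16 members, and it was the highest for 63.7% of all genes tested. Among 1-year exercised libraries, replicate 4 was the highest for 13 of 16, against 47.7% of all genes, and the other fabp2-rich library there, replicate 3, for 0 of 16. Among 3-year resting libraries, replicate 3 was the highest for 10 of 16, against 37.0% of all genes. In 3-year exercised fish, a fabp2-rich library was the highest for 11 of 16 members, against 80.0% of all genes, but replicate 1 was the highest for 1 and the lowest for 7. The summed level of the 28 intestine markers was 1268 to 51760 CPM in 3-year exercised, 1845 to 10280 in 3-year resting, 3474 to 47070 in 1-year exercised and 2198 to 54390 CPM in 1-year resting libraries, and none of the 28 was at 0 throughout a group. How far intestine added to the levels of the members in these libraries was not tested.

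The level of C1q relative to MPEG1 differed between libraries with and without much fabp2. The ratio of the summed C1q CPM to the CPM of MPEG1 (ENSDARG00000055290) lay between 1.49 and 2.53 in the 13 libraries with little fabp2. It lay between 0.76 and 1.47 in the 7 fabp2-rich ones, without overlap. Over the 13 libraries the group means of the ratio were 1.91 in 3-year exercised (n = 2), 1.89 in 3-year resting (n = 4), 1.99 in 1-year exercised (n = 3) and 2.05 in 1-year resting fish (n = 4), with SDs of 0.30 to 0.55. So the ratio did not differ between groups by more than its spread, while the C1q sum of the same libraries averaged 24.6, 20.6, 5.71 and 13.03 CPM in these groups. This MPEG1 identifier was itself closely correlated with C1q over the 13 libraries (r = 0.97). Other markers differed from it for exercise at 1 year on these libraries. Their log2 differences were 0.25 for MPEG1 (ENSDARG00000043093), -0.06 for SPI1, -0.33 for marco and -0.91 for csf1ra. Those of c1qa, c1qb, c1qc and MPEG1 (ENSDARG00000055290) were -1.54, -1.285, -1.275 and -1.38. A ratio to the other markers was not tested.

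**Figure D4:**
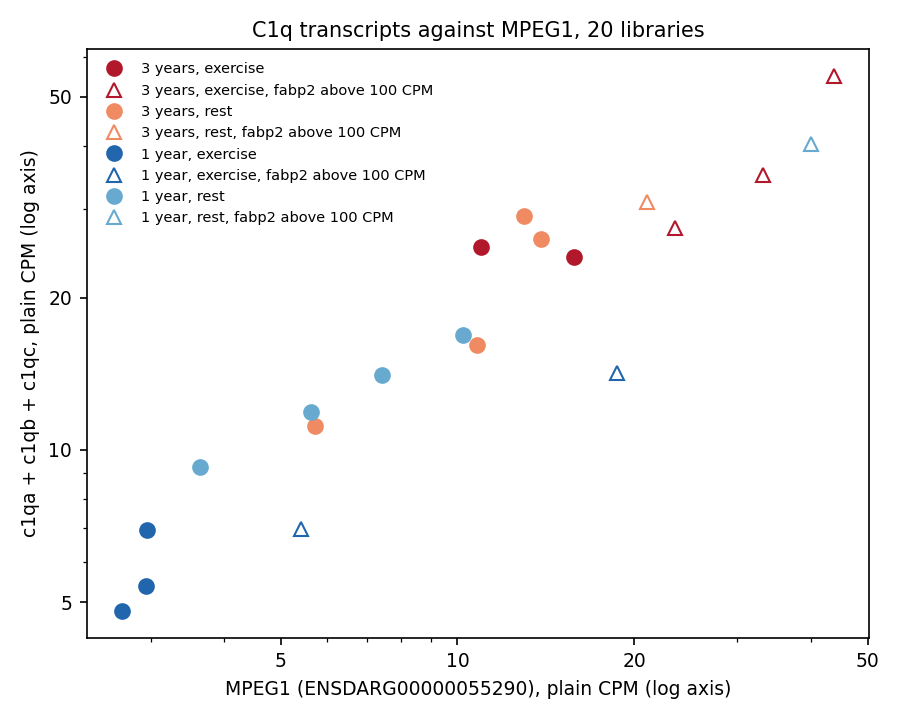
Summed CPM of c1qa, c1qb and c1qc against CPM of MPEG1 (ENSDARG00000055290) in the 20 libraries (both axes logarithmic), by group, with fabp2-rich libraries as open triangles. The 13 circles have 1.49 to 2.53 times as much C1q as MPEG1, and the 7 triangles 0.76 to 1.47 times.

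MFAP4 is a secreted, fibrinogen-like glycoprotein, and in zebrafish larvae an mfap4 gene is used as a macrophage marker. RefSeq lists a cluster of many numbered mfap4 genes, the symbol table gives all 6 identifiers the single symbol MFAP4, and reads of near-identical copies may have been split. The identifiers did not behave alike. MFAP4 (ENSDARG00000090557) was far more abundant than any other member, at 110 CPM per kilobase on average, against 8.56 for c1qc and 5.53 for MPEG1 (ENSDARG00000055290). It had 41.6, 78.8, 439, 529 and 86.4 CPM in 3-year exercised fish, and 70.8, 44.2, 298, 53.3 and 72.8 CPM in 3-year resting fish. In 1-year fish it stayed between 36.8 and 66.2 CPM with exercise and between 31.8 and 58.5 CPM without. High levels were thus seen in 3 libraries of 3-year fish, of which the 2 highest, both exercised, held little fabp2.

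The log2 difference of MFAP4 (ENSDARG00000090557) between 3-year and 1-year exercised fish was 2.30 ± 0.67 (adjusted p = 0.0391), called in 13 of 20 fits without 1 library. Restricted to the 13 libraries it was 3.30 ± 0.34 (adjusted p = 0.00239). There its difference between exercised and resting 3-year fish was 2.87 ± 0.30 (adjusted p = 0.00653), 1 of only 2 genes called in that fit (0.011% of all genes), but resting on 2 exercised libraries. Over all libraries that difference was 1.1 ± 0.65 (adjusted p = 0.384). Its correlation with the mean C1q level over the 20 libraries was 0.36.

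MFAP4 (ENSDARG00000089667) was at most 0.615 CPM outside exercised 3-year fish, a level that exercised 3-year replicate 1 did not exceed either. It had 0.509, 9.55, 1.85, 4.53 and 11.0 CPM in 3-year exercised fish, and 0, 0.149, 0.272, 0.233 and 0.416 CPM in 3-year resting fish. In 1-year fish it was at most 0.242 CPM with exercise and at most 0.615 CPM without, from 1 to 26 reads a library. The exercised 3-year group did not overlap the resting 3-year group in this gene alone of the 16, as 3.53% of all genes did not in that direction. The log2 difference was 5.06 ± 0.88 against 1-year exercised fish (adjusted p = 0.00277), called in each of 20 fits without 1 library, and 4.26 ± 0.85 against 3-year resting fish (adjusted p = 0.0824). Without 1-year resting replicate 5, which is in neither group, the second had an adjusted p of 0.049.

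Of the other MFAP4 identifiers tested, MFAP4 (ENSDARG00000088745) had 0.789, 6.21, 1.72, 2.52 and 7.30 CPM in 3-year exercised fish, against 0.107, 0.178, 0.105, 2.08 and 0.106 CPM in 1-year exercised fish. The difference was 2.70 ± 1.01 (adjusted p = 0.101), and 4.54 (adjusted p = 0.0117) without 1-year exercised replicate 4. MFAP4 (ENSDARG00000038683) was between 0.605 and 9.01 CPM in 3-year exercised fish and between 0.0262 and 0.666 CPM in 1-year exercised fish, a log2 difference of 3.17 ± 0.90 (adjusted p = 0.0347) that did not pass on the 13 libraries. Without 3-year exercised replicate 4, its highest library, the difference was 1.86 (adjusted p = 0.147), and it also missed the threshold without 1-year exercised replicate 1 (0.0852), 3 (0.0789) or 5 (0.084). MFAP4 (ENSDARG00000090783) was highest in fabp2-rich 1-year libraries, 24.7 CPM in exercised replicate 4 and 49.2 CPM in resting replicate 5, and its log2 difference among exercised fish was 0.30 ± 0.99 over all libraries. Among the 13 libraries it had 9.95 and 13.4 CPM in 3-year exercised fish, against 0.866 to 1.37 CPM in 1-year exercised fish, a difference of 3.40 ± 0.49 (adjusted p = 0.0107).

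Peroxidase and lysozyme are granule enzymes of granulocytes. The 2 peroxidase identifiers and lyz did not follow a common course. The more abundant peroxidase, EPX (ENSDARG00000019521), had 81.2, 158.8, 4.17, 18.96 and 10.8 CPM in 3-year exercised fish, and 0.320, 14.3, 578, 44.9 and 28.2 CPM in 3-year resting fish. It had 0.241, 1.17, 0.340, 2.26 and 0.318 CPM in 1-year exercised fish, against 0.454, 1.48, 2.45, 0.721 and 26.8 CPM in 1-year resting fish. It thus ranged from 0.320 to 578 CPM within 3-year resting fish alone, and 4 of 5 libraries there lay above all but at most 1 of the 1-year libraries. The symbol table uses the human-style name EPX, while RefSeq lists both an epx and an mpx gene in zebrafish. Which of these EPX (ENSDARG00000019521) is was not determined here.

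The log2 difference of EPX (ENSDARG00000019521) was 5.75 ± 1.56 between 3-year and 1-year exercised fish (adjusted p = 0.0276), called in 14 of 20 fits without 1 library. It was 4.63 ± 1.47 between 3-year and 1-year resting fish (adjusted p = 0.0921), 6.34 (adjusted p = 0.0337) without 1-year resting replicate 5, 4.95 (0.0427) without 3-year resting replicate 1 and 2.38 (0.329) without 3-year resting replicate 3. The other peroxidase, epx (ENSDARG00000012535), had 0.460 to 1.02 CPM in 3-year exercised fish, against 0.0510 to 0.141 CPM in 1-year exercised fish. In 3-year resting fish it had 9.24 CPM in replicate 1 and at most 0.190 CPM in the other 4, and that library decided its resting age difference, 4.49 ± 1.26 (adjusted p = 0.0564) with it and 0.18 (adjusted p = 0.912) without it. Its difference among exercised fish was 2.76 (adjusted p = 0.16) with that library and 2.76 (adjusted p = 0.00483) without it.

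Lysozyme, lyz (ENSDARG00000057789), had 0.916, 1.504, 6.83, 1.28 and 1.47 CPM in 3-year exercised fish, and 0.756, 0.509, 1.47, 0.389 and 3.12 CPM in 3-year resting fish. It had 4.64, 7.77, 1.39, 2.48 and 6.36 CPM in 1-year exercised fish, against 0.666, 1.46, 1.74, 3.69 and 7.12 CPM in 1-year resting fish. All groups overlapped over the 20 libraries. Unlike the C1q chains, lyz had its highest group mean in 1-year exercised fish, 4.53 ± 2.64 CPM, and its lowest in 3-year resting fish, 1.25 ± 1.13 CPM (SD, n = 5 each). No difference passed, and on the 13 libraries the 1-year exercised libraries, at 4.64 to 7.77 CPM, lay above the resting ones, at 0.666 to 3.69 CPM, as 13.2% of all genes did.

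**Figure D5:**
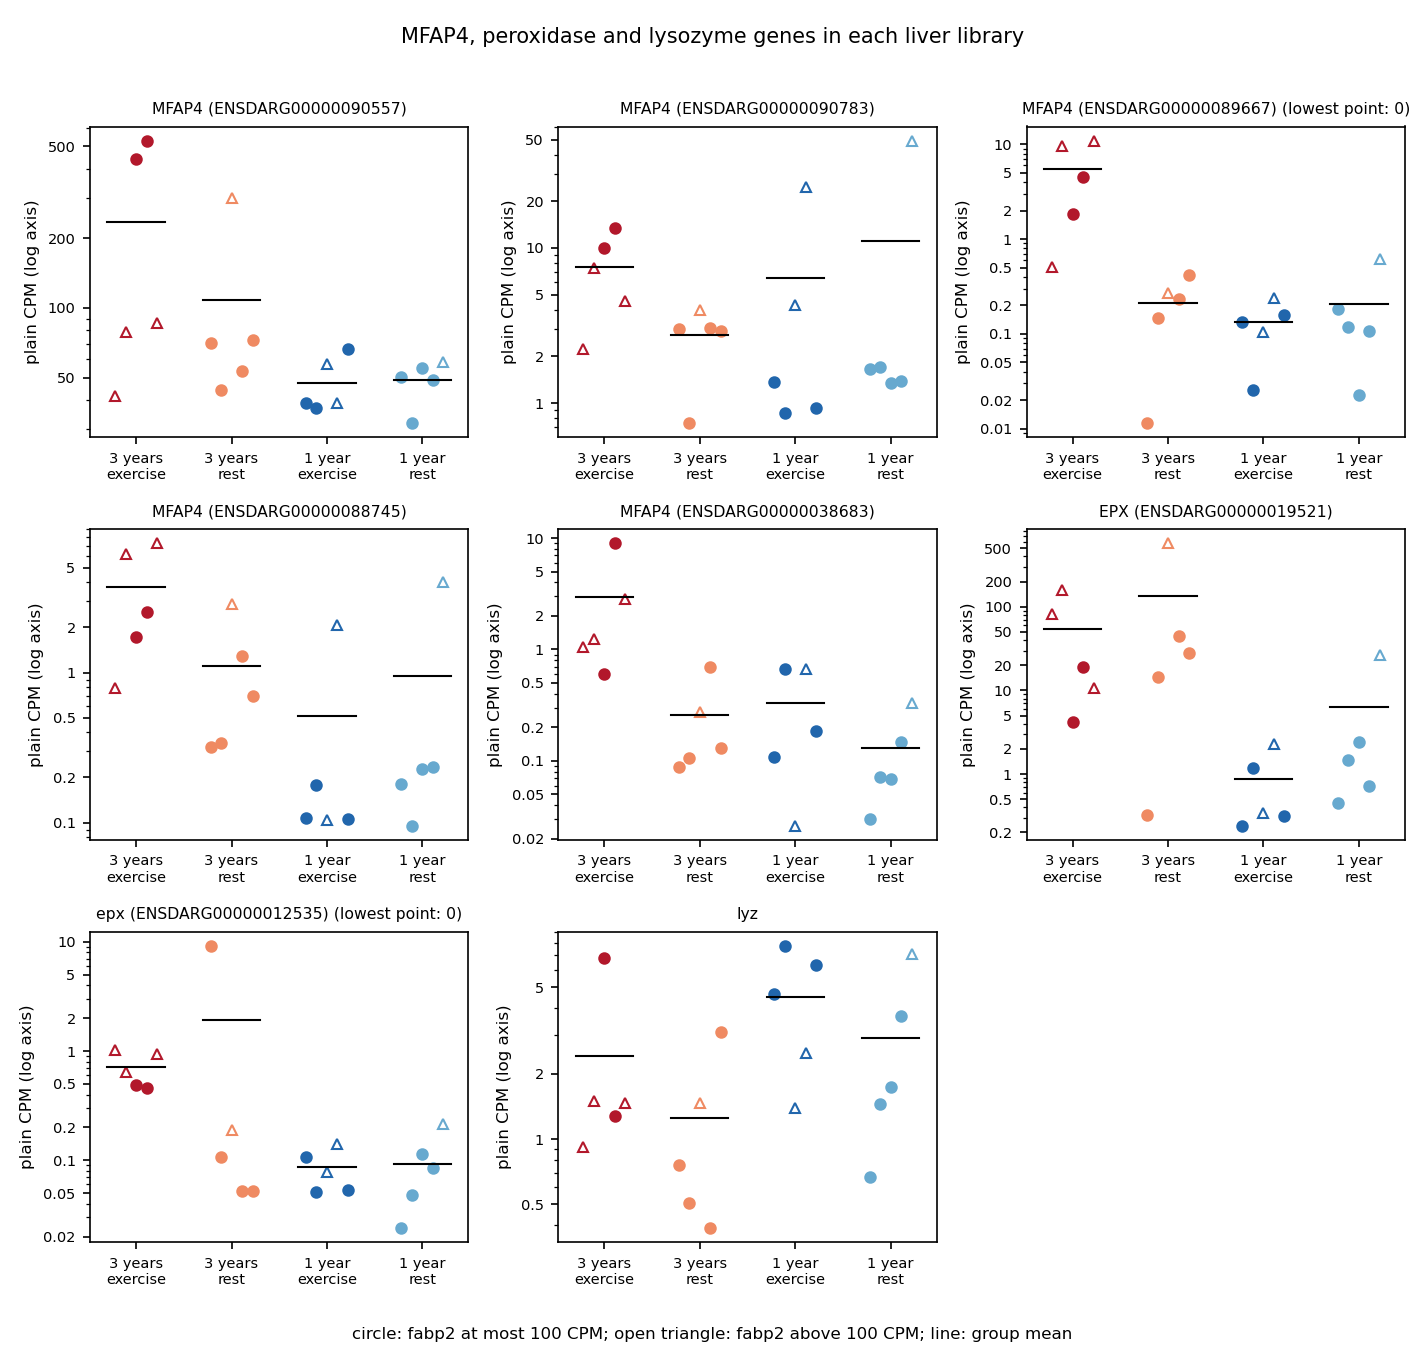
Plain CPM (log axis) of the 5 MFAP4 identifiers tested, the 2 peroxidase identifiers and lyz in the 20 libraries, by age and exercise, with fabp2-rich libraries as open triangles and group means as lines. A value of 0 is drawn as the lowest point of its panel; EPX ranges from 0.320 to 578 CPM within 3-year resting fish.

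Of 36 other macrophage markers tested, 29 had a higher fitted level in exercised 3-year than in exercised 1-year fish. The list of other macrophage markers was chosen with earlier results of these data known. Of the 36, 12 were called higher and 1 was called lower, where 3.91% of all genes were called higher and 5.25% lower. Their median log2 difference was 1.2 against 0.08 over all genes. With the 13 libraries 4 were called higher and 0 lower, where 1.2% of all genes were called higher and 1.21% lower. The summed level of the list, which was not tested, was 8173 to 14240 CPM in 3-year exercised fish, against 11850 to 19660 CPM in 1-year exercised fish, and 12300 to 14240 CPM against 16560 to 19660 CPM on the 13 libraries. Most of that sum was apoc1, an apolipoprotein gene, at 7682 to 20140 CPM over the 20 libraries. IRF8, a transcription factor of macrophage development, was higher by 2.23 ± 0.44 (adjusted p = 0.00575), and by 2.57 on the 13 libraries (adjusted p = 0.0112). The integrin chain gene itgb2 was higher by 1.53 ± 0.29 (adjusted p = 0.00448), and by 1.88 on the 13 libraries (adjusted p = 0.0299). The NADPH oxidase gene cybb was higher by 1.70 ± 0.39 (adjusted p = 0.012), with an adjusted p of 0.0643 on the 13 libraries.

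At 1 year, exercise went with 2 genes of that list called higher and 0 lower, where 1.38% of all genes were called higher, and the median of the 36 was -0.58 against -0.04 over all genes. The 2 were SLC40A1, the iron exporter ferroportin, at 1.41 ± 0.36 (adjusted p = 0.0376), and HMOX1, the heme-degrading enzyme, at 1.72 ± 0.45 (adjusted p = 0.0476). Both serve the recycling of red-cell iron, and both are also expressed outside macrophages. On the 13 libraries SLC40A1 passed (1.87, adjusted p = 0.0221) and HMOX1 did not (adjusted p = 0.116). Their direction was opposite to that of c1qa and c1qc in the same libraries.

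C1q acts with the proteases C1r and C1s, and C1s cleaves C4. Of 9 such partners and regulators, 3 were called higher and 1 lower in exercised 3-year than in exercised 1-year fish, where 3.91% of all genes were called higher and 5.25% lower. On the 13 libraries 3 were called higher and 0 lower, where 1.2% of all genes were called higher. The protease gene c1s.2 was higher by 2.51 ± 0.62 (adjusted p = 0.0175), c4b by 2.23 ± 0.60 (adjusted p = 0.0266) and c1s.1 by 1.68 ± 0.48 (adjusted p = 0.0361). Both c4b and c1s.1 also passed on the 13 libraries (adjusted p = 0.0274 and 0.0234), where c1s.2 had an adjusted p of 0.0521. The third called there was c1r, named after its values were seen, at 1.76 ± 0.34 (adjusted p = 0.0293). C1QBP, a mitochondrial protein first found as a C1q binder, was lower (log2 difference -0.57 ± 0.17, adjusted p = 0.0391), with an adjusted p of 0.0663 on the 13 libraries. None of the 9 was called for exercise at 1 year, where 2.85% of all genes were called. Their median there was -1.01, against -0.04 over all genes.

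Of 15 granulocyte markers tested, 2 were called higher in exercised 3-year than in exercised 1-year fish, where 3.91% of all genes were called higher. On the 13 libraries 0 of 16 were called, against 1.2% of all genes called higher. The 2 were mmp13a, a collagenase gene, at 4.05 ± 1.21 (adjusted p = 0.0424), and il34, which encodes a growth factor that binds the CSF1 receptor and does not mark granulocytes by its known role, at 0.92 ± 0.21 (adjusted p = 0.0125). Of 24 lymphocyte markers tested, 2 were called higher in the same comparison, and 0 of 26 on the 13 libraries. They were blnk (0.98 ± 0.17, adjusted p = 0.00239) and cd79a, a chain of the B cell receptor complex (3.34 ± 0.82, adjusted p = 0.0175), and the median of the 24 was 1.11 against 0.08 over all genes. The summed level of all 32 lymphocyte markers matched, tested or not, was 78.1 to 119.9 CPM in 3-year exercised and 23.8 to 78.3 CPM in 3-year resting libraries. It was 10.6 to 71.9 CPM in 1-year exercised and 19 to 157.7 CPM in 1-year resting libraries. Within the 13 libraries it was 78.1 to 119.9 CPM in 3-year exercised fish, against 10.6 to 44.2 CPM in 1-year exercised fish, and none of the 32 was at 0 throughout a group. The part of lymphocytes in the levels of the members was not tested.

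The genes whose log2 levels over the 20 libraries were most like the mean of the C1q chains were sought among 11962 others. These had a symbol and a mean of at least 1 CPM, and their median correlation was -0.027. The first was ms4a17a.10 (Pearson r = 0.96), followed by IRF8 (0.95). Next came paox1, tnfrsf9a, MPEG1 (ENSDARG00000055290), cbx7a, olmf4l1, anxa3b and ms4a17a.6 (0.91 each) and CXCR3 (0.90). Over the 13 libraries 4 of these 10 stayed among the first 10, ms4a17a.10 (0.98), MPEG1 (0.97), IRF8 (0.94) and ms4a17a.6 (0.94), and the others there were cd74a, ptprc, LCP1, mhc2daa, hist2h2l and lck. Among the members, EPX (ENSDARG00000019521) had 0.84, marco 0.83, MFAP4 (ENSDARG00000088745) 0.80, SPI1 0.71, csf1ra 0.54 and lyz -0.44. These correlations over libraries are a description, and the libraries share depth and intestinal content. They also run across 4 groups that differ in C1q. Within groups, the 10 genes had 0.67 (tnfrsf9a) to 0.88 (IRF8 and MPEG1). The members named had 0.75 (EPX), 0.71 (marco), 0.79 (MFAP4), 0.48 (SPI1), 0.29 (csf1ra) and -0.02 (lyz).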

How the data were processed

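RNA-seq of 20 zebrafish liver libraries was analysed from the deposited table of read counts per gene. Reads had been aligned and counted on build GRCz10, and bcl2fastq 1.8.4, STAR 2.4.1d and featureCounts 1.4.6-p4 are the tools named, per the submitters' processing notes. Per the labels' protocols the kit was TruSeq RNA v2, which does not mark strand, so reads of overlapping and antisense genes cannot be told apart. The deposited RPKM, made by the authors, were used only to recover gene lengths. Over 1399 genes they had been divided by totals repeated down the table, not by each library's own, with errors up to 0.59 (log2).

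Plain CPM is the count divided by the library total. The test was that of edgeR 4.0.16 in R 4.3.3. There filterByExpr left 18079 genes, followed by TMM scaling, 1 model of 4 group means, the quasi-likelihood F-test and Benjamini-Hochberg adjustment, with a threshold of 0.05. Alternatives were DESeq2, other size factors and filters, only the groups compared, fabp2 as a term, the 13 libraries, and leaving out each library. The fabp2 term marked libraries above 100 CPM and did not use the level of fabp2 itself. Lists without fabp2-rich libraries were an alternative chosen after seeing the data. The code was tested on simulated counts.

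The members and lists were chosen with earlier results of these data known. Named genes were all members, up to 4 genes per list with the smallest p, and the 10 most correlated with C1q. Dropping the suffix of mpeg1.1 was decided after the symbol table was seen. Symbols matched 26269 of 32105 identifiers. No columns were without a sample. Replicate numbers follow accession order and pair nothing. Library totals were 33046127 to 49579666 counts, so 1 read is a small fraction of 1 CPM. One list gene is not reported here.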

Additional observations from a re-analysis of the deposited data

Results flagged for a closer look

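Within each group of 5 libraries, a value was singled out when its gap to the nearest other, divided by the range of the group, exceeded Dixon's critical value of 0.71. This was asked of 68 combinations of member and group with at least 5 reads in some library, and 20 values passed, 17 of them in libraries with fabp2 above 100 CPM. Chance passes about 1 in 20 groups of normally distributed values. The values here are plain CPM, for which this rate was not checked, and all 20 that passed were the highest of their group. No explanation was tested.

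Resting 1-year replicate 5 gave 10 of the 20, each the highest of its group. It had 15.2 CPM of c1qb and 14.8 CPM of c1qc. MPEG1 (ENSDARG00000043093) had 7.31 CPM and MPEG1 (ENSDARG00000055290) had 40.1 CPM there. It held 22.7 CPM of marco and 6.74 CPM of SPI1. MFAP4 (ENSDARG00000088745) was at 4.02 CPM, MFAP4 (ENSDARG00000089667) at 0.615 CPM and MFAP4 (ENSDARG00000090783) at 49.2 CPM. EPX (ENSDARG00000019521) was at 26.8 CPM.

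Exercised 1-year replicate 4 gave 4, namely 5.53 CPM of c1qb, 18.7 CPM of MPEG1 (ENSDARG00000055290), 2.08 CPM of MFAP4 (ENSDARG00000088745) and 24.7 CPM of MFAP4 (ENSDARG00000090783). Exercised 3-year replicate 2 stood apart with 17.9 CPM of c1qb. Resting 3-year replicate 3 had 298 CPM of MFAP4 (ENSDARG00000090557) and 578 CPM of EPX (ENSDARG00000019521). All these libraries are rich in fabp2.

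The 3 values from libraries with little fabp2 were 6.83 CPM of lyz in exercised 3-year replicate 3, 9.01 CPM of MFAP4 (ENSDARG00000038683) in exercised 3-year replicate 4, and 9.24 CPM of epx (ENSDARG00000012535) in resting 3-year replicate 1.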

How the results depend on the processing

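The number of members called differed from the edgeR fit on all libraries, which tested 16, by over 1.5 times as follows. DESeq2 fitted 18 members, some without an adjusted p, and the fit of only the 1-year groups tested 12. The share of all genes called in the same fit is in brackets. For exercise at 1 year, 2 were called in edgeR (2.85%), against 1 without the fabp2-rich libraries (1.02%). There were 4 with fabp2 as a term (4.33%) and 0 with only the 1-year groups (1.87%). For exercise at 3 years, 0 were called (0%), against 1 without the fabp2-rich libraries (0.011%) and 2 in DESeq2 (1.72%). For age at rest, 0 were called (3.5%), against 1 with fabp2 as a term (5.42%) and 1 in DESeq2 (4.83%). For the exercise effect of 3-year minus that of 1-year fish, 0 were called (0.979%). There was 1 without the fabp2-rich libraries (0.11%), 1 with fabp2 as a term (1.39%) and 3 in DESeq2 (2.1%). The causes were not tested.

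The number called between 3-year and 1-year exercised fish was 11 (9.17% of all genes). It was 9 to 12 in the fits just named and those with other filters and size factors. These fits held 13 to 18 members and called 2.41% to 11.8% of the genes fitted. Leaving out 1 library gave 6 to 12 for that comparison (4.7% to 13.7% of all genes). It gave 1 to 3 for exercise at 1 year (1.31% to 3.33%) and 0 to 1 for exercise at 3 years (0% to 0.12%). For age at rest it gave 0 to 2 (1.3% to 4.56%), and 0 to 2 for the difference between ages (0.314% to 1.18%). No member that was called changed sign under these alternatives. No paired analysis was possible because the replicate numbers follow only the accession order. Members under 1 CPM rest on few reads, so their fold changes are the least certain.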
